A study of Homo sapiens with 10 samples.

Results

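Drug efflux pumps of the ATP-binding cassette (ABC) family and the transporters that move copper, and with it platinum drugs, across cell membranes were examined in 7 ovarian cancer cell lines. The set comprised 10 genes chosen by name from the transcript annotation: ABCB1, ABCG2, ABCC1, ABCC2, ABCC3, ABCC4, ABCC5, ATP7A, ATP7B and SLC31A1. They account for 31 of the 99493 annotated transcripts and for 10 of the 57110 gene identifiers, and 0 of the 31 transcripts lie in an identifier that joins several overlapping genes.

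RNA of the established lines IGROV-1, SK-OV-3, COV362, COV504, OVMANA, OVKATE and OVTOKO was sequenced as long nanopore reads, which can cover a transcript from end to end. The 6 lines other than IGROV-1 have 1 library each, run on the PromethION instrument. IGROV-1 has 4 libraries, replicates 1 and 2 on the PromethION and replicates 1 and 2 on the smaller MinION. No treatment is named for any line. The labels do not say whether the IGROV-1 replicates came from separate cultures, so p-values measure only the spread between those libraries, which may be technical, and each single library of another line is assumed to vary like them.

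ABC exporters spend ATP to carry compounds out of the cell. P-glycoprotein (the product of ABCB1), the breast cancer resistance protein (ABCG2) and the multidrug resistance-associated proteins (the ABCC genes) are known for extruding anticancer drugs, the ABCC proteins often as conjugates with glutathione or glucuronate. Cells take up copper through CTR1 (SLC31A1) and load or export it with the P-type pumps ATP7A and ATP7B, and the same proteins have been linked to the entry and removal of cisplatin, a standard drug in ovarian cancer.

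The libraries held 1729782 to 3666224 estimated counts with a median of 2287873. Levels are given as CPM, the count scaled to the total of the library, which is not divided by transcript length, so levels were compared between samples and not between genes. A count of 0 allows up to 3 counts, or 0.818 to 1.73 CPM in a single library, and this floor and the intervals cover counting error only. Of 9 epithelial and ovarian cancer markers, 5 to 8 reached 10 CPM in the 6 other lines and only 3 or 4 in the IGROV-1 libraries. CDH1, KRT7 and WT1 were at 0 in all 4 IGROV-1 libraries. WT1 was also at 0 in OVMANA, OVTOKO, SK-OV-3 and COV504, and CDH1 was at 1.57 CPM in COV362 and 2.31 CPM in OVTOKO. Leukocyte markers summed to 0 to 12.4 CPM, endothelial markers to 0.534 to 25.8 CPM and fibroblast markers to 0.578 to 272 CPM, the last value in SK-OV-3, where COL1A1 was at 219 CPM. Mitochondrial transcripts took 13.0% and 15.2% of the counts of the IGROV-1 PromethION libraries, 5.63% and 6.35% of the MinION libraries and 2.82% to 4.54% in the other lines. In bulk RNA, fewer cells of a type and less RNA per cell cannot be told apart.

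The 10 genes fell into 3 kinds of pattern across the lines. ABCC1, ABCC5 and SLC31A1 were measured at more than 10 CPM in every library, with 2.22-fold, 3.20-fold and 3.82-fold between the highest and the lowest line. ABCB1, ABCC3 and ABCC4 were strongly uneven: ABCB1 was essentially a transcript of OVTOKO, ABCC3 was high in OVTOKO and SK-OV-3 and close to absent from IGROV-1, and ABCC4 spanned 23.2-fold from OVTOKO to COV504. ABCC2, ABCG2, ATP7A and ATP7B stayed under 7 CPM in all 10 libraries, and their order over the lines is set by a few counts. The 7 lines were put in order of level, with IGROV-1 as the mean of its PromethION libraries. Its interval came from their pooled counts and leaves out the spread between them. The exact 95% Poisson intervals of neighbouring lines overlapped for all 6 neighbouring pairs of ABCC1, ABCC2, ABCC5, ABCG2, ATP7A and ATP7B. They overlapped for 5 pairs of ABCB1, for 4 of SLC31A1 and for 2 each of ABCC3 and ABCC4. For ABCC4 the pooled IGROV-1 interval lay below that of OVMANA (46.4 to 68.5 CPM). The interval of PromethION replicate 2 alone (35.7 to 53.2 CPM) overlapped with that of OVMANA.

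**Figure D1:**
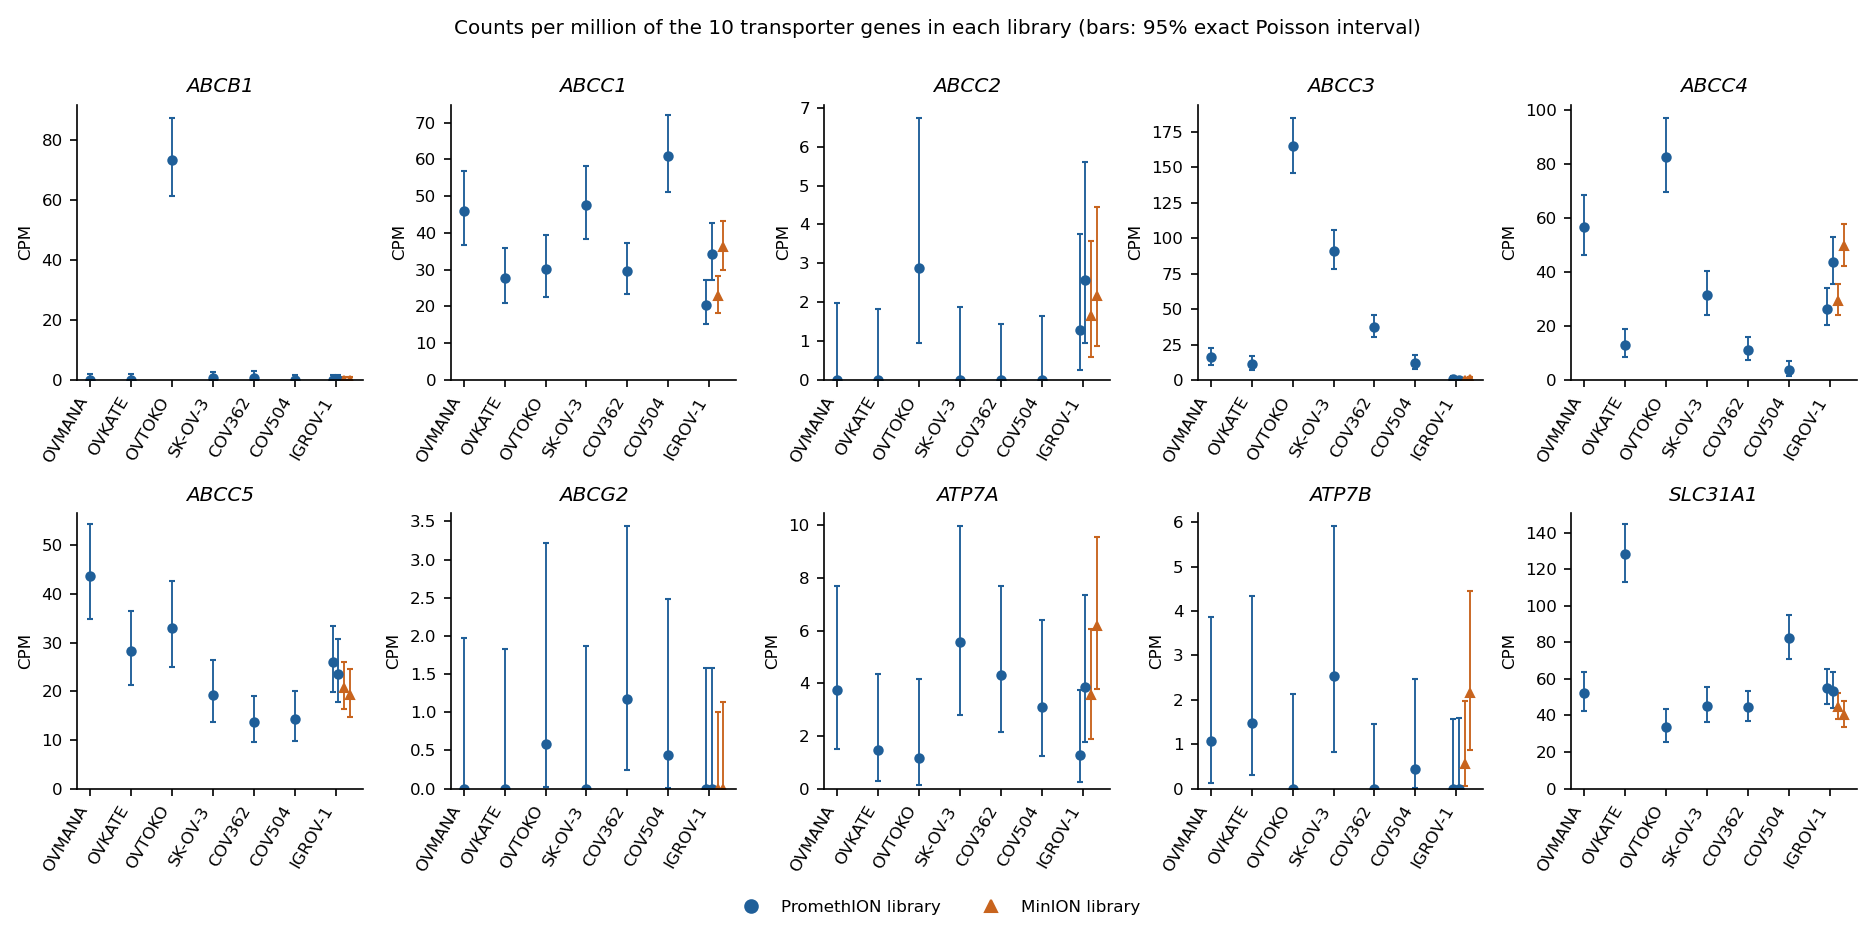
Level of each of the 10 genes in every library (vertical axis, CPM; horizontal axis, cell line), as points with 95% exact Poisson intervals of the counts; circles are PromethION and triangles MinION libraries. ABCB1 stands at 73.4 CPM in OVTOKO against at most 0.784 CPM elsewhere, ABCC3 and ABCC4 are uneven over the lines, and ABCC2, ABCG2 and ATP7B lie near the floor of 3 counts.

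Each line was compared with the IGROV-1 PromethION libraries in a single edgeR quasi-likelihood fit over all 10 libraries, with Benjamini-Hochberg adjustment over 13030 genes and calls at an adjusted p under 0.05. Of the 10 transporter genes 7 passed the filter on low counts, which left out ABCC2, ABCG2 and ATP7B. In OVMANA 2 of these 7 were called, beside 35.4% of all genes tested (18.9% higher and 16.5% lower), and both were higher. In OVKATE 3 of 7 were called, beside 49.2% of all genes (26.8% higher and 22.4% lower), and 2 of them were higher and 1 lower. OVTOKO had 3 of 7, all higher, beside 34.1% (18.2% and 15.9%). SK-OV-3 had 1 of 7, higher, beside 41.8% (22.0% and 19.8%). COV362 had 3 of 7, 1 higher and 2 lower, beside 42.5% (23.7% and 18.8%). COV504 had 4 of 7, 2 higher and 2 lower, beside 43.5% (24.0% and 19.6%). A joint test of any difference among the 7 lines called 5 of 7 (ABCB1, ABCC3, ABCC4, ABCC5 and SLC31A1), beside 81.3% of all genes. The OVTOKO and joint counts include ABCB1, which held 0 counts in all 4 IGROV-1 libraries and passed the filter only through OVTOKO. All of these counts include ABCC3, which was close to absent from IGROV-1 and passed the filter only through the other lines. In these lines a large share of all genes was called, and the shares among the 7 transporters are of a similar order, so the counts say nothing particular about transporters. The identity, direction and size of the differences are described below.

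**Figure D2:**
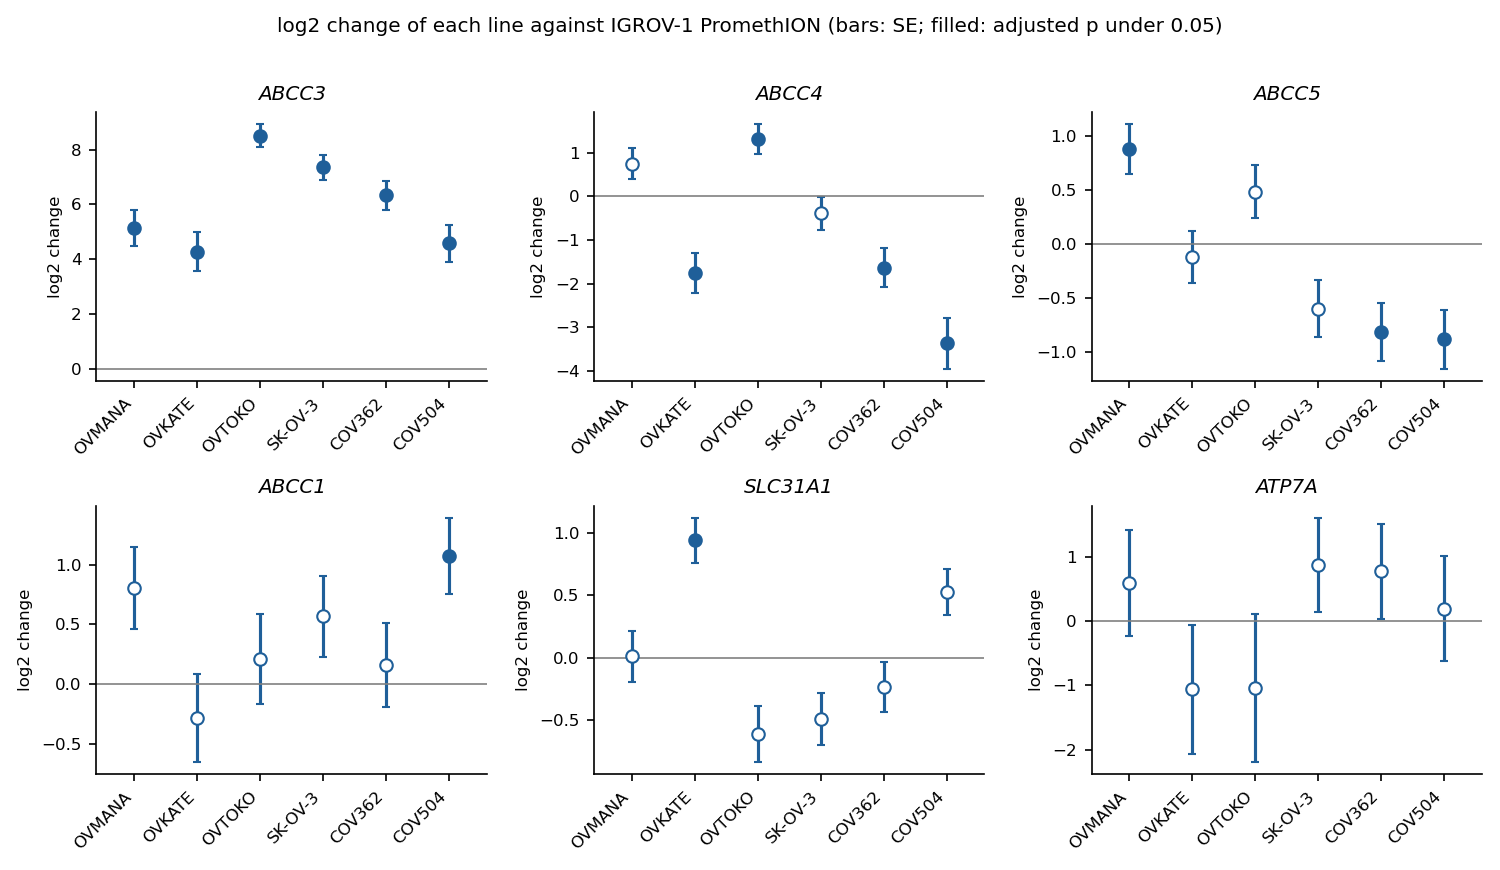
Fitted log2 change of each line against the IGROV-1 PromethION libraries (vertical axis) for 6 of the 7 tested genes, with bars of 1 SE and filled points for an adjusted p under 0.05; ABCB1 is not drawn because its reference is at 0. ABCC3 is above 0 and called in all 6 lines, with sizes that rest on 2 reference counts; ABCC4 is called higher in OVTOKO and lower in OVKATE, COV362 and COV504, and ATP7A is called in none.

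ABCB1, the classical multidrug resistance pump, was a transcript of 1 line. It was measured at 73.4 CPM in OVTOKO (127 counts), at 0.506 CPM in SK-OV-3 (1 count) and at 0.784 CPM in COV362 (2 counts). OVMANA, OVKATE, COV504 and all 4 IGROV-1 libraries held 0 counts. The single OVTOKO value therefore lay far above the other 9 libraries, which overlapped with each other. Against the floor of 3 counts over both IGROV-1 PromethION libraries (0.643 CPM), the OVTOKO level was higher by at least 114-fold. No p is given for ABCB1, because the replicated line held none of its counts and so gave no measure of spread for this gene. ABCB1 (ENSG00000085563) lies on chromosome 7 at 87503633 to 87713323 on the minus strand (GRCh38, as all positions here). RUNDC3B, which overlaps it on the opposite strand, was at 6.94 CPM in OVTOKO, 2.03 CPM in SK-OV-3 and 0 in the other 8 libraries, and since the use of strand in counting is not stated, reads of the overlap could be assigned to either gene.

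Which ABCB1 promoter the OVTOKO transcripts came from was examined in the transcript estimates, since the gene has an upstream and a downstream start. ENST00000622132, whose first exon lies at 87600755 to 87601073, took 87.8% of the OVTOKO counts (111.5 of 127, 95% Wilson interval 81.4% to 92.7%). ENST00000265724, whose first exon lies far upstream at 87713161 to 87713248, took 12.2% (7.29% to 18.6%). Most of the signal was thus assigned to the transcript of the downstream start. The second exon of ENST00000265724 (87600755 to 87601078) contains the whole first exon of ENST00000622132, so a read that stops within that exon is compatible with both. The 2 starts listed by RefSeq are 112411 bases apart. The bases that precede the annotated exon at each start, within the 250 bases before the RefSeq start (GRCh38.p14, minus strand, chr7:87601079-87601134 and chr7:87713324-87713545), are shown because the transcripts of this line divide between them, with matches to CCAAT or its reverse complement ATTGG in capitals.
downstream ABCB1 promoter: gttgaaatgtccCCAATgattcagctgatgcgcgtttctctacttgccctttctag
upstream ABCB1 promoter: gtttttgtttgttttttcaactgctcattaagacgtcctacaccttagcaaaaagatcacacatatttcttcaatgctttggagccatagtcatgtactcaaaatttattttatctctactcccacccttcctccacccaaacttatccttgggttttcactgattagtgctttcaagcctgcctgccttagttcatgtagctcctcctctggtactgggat
The downstream RefSeq start lies 189 bases inside the first exon of ENST00000622132, so most of the 250 bases before it are annotated exon of that transcript and not sequence before it. The downstream bases shown also directly precede the second exon of ENST00000265724, so in that transcript they are the end of the first intron. Over the full 250 bases, the downstream window held 2 matches to CCAAT or ATTGG, of which 1 lies in the bases shown, and the upstream window held 0. Such a match occurs in 32.0% of the 35116 RefSeq windows of this length. GGGCGG or its complement CCGCCC (in 42.6% of windows) and TATAAA or TTTATA (in 10.7%) matched 0 times in both. The matches describe letters and not binding.

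ABCG2 (ENSG00000118777; chromosome 4, 88090264 to 88231322, minus strand), the breast cancer resistance protein, was at or under the floor in every library. COV362 held 3 counts (1.18 CPM), OVTOKO 1 count (0.578 CPM) and COV504 1 count (0.445 CPM). The other 7 libraries, all 4 of IGROV-1 among them, held 0. Its leading transcript was ENST00000237612. No difference between lines was detectable at this depth.

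ABCC1 (MRP1, ENSG00000103222), a broad exporter of glutathione and glucuronide conjugates, had the narrowest range over the lines. It lies on chromosome 16 at 15949577 to 16143074 on the plus strand. It was measured at 46.0 CPM in OVMANA, 27.7 in OVKATE, 30.1 in OVTOKO, 47.6 in SK-OV-3, 29.8 in COV362 and 61.0 in COV504. In IGROV-1 it was at 20.5 and 34.4 CPM on the PromethION (27.4 ± 9.80, SD, n = 2) and at 22.9 and 36.1 CPM on the MinION. Only COV504, OVMANA and SK-OV-3 lay above the range of the IGROV-1 libraries. COV504 was called, with a log2 change of 1.07 (SE 0.32; edgeR Benjamini-Hochberg adjusted p = 0.0260). The joint test over the lines did not pass (edgeR adjusted p = 0.0659). The COV504 call was lost without MinION replicate 1, without MinION replicate 2, without the filter on low counts and under DESeq2. Without PromethION replicate 2, the higher of the reference libraries, ABCC1 was also called higher in OVMANA and SK-OV-3 and the joint test passed; the joint test also passed without PromethION replicate 1 and with the 4 IGROV-1 libraries as 1 group. In OVKATE, OVTOKO and COV362 the sign of the uncalled ABCC1 difference changed with the scaling of the libraries.

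ABCC1 reads divided between transcripts with and without a 30-base exon. The exon (chromosome 16, 16098873 to 16098902, plus strand, number 20 of 32 in ENST00000399408) is absent from ENST00000399410. The annotations also differ in their last base, 16143074 in ENST00000399408 against 16143062, and in their reading frame, 1215 codons against 1531. The joined exon ends of both are shown because only ENST00000399408 holds this exon. The 30-base exon stands in capitals with 30 bases of the neighbouring exons on each side (GENCODE 29, GRCh38).
ENST00000399408: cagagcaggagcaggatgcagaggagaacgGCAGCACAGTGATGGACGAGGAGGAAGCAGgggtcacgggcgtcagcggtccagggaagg
ENST00000399410: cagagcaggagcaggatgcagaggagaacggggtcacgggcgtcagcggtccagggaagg
The transcript with the exon took 19.8% of the ABCC1 counts in OVMANA, 26.0% in OVKATE, 17.0% in OVTOKO, 32.8% in SK-OV-3, 51.1% in COV362 and 31.6% in COV504. In IGROV-1 it took 5.15% and 44.3% on the PromethION and 57.4% and 53.8% on the MinION. The 95% Wilson intervals of COV362 (40.3% to 62.2%) and OVTOKO (9.38% to 29.7%) did not overlap. Those of the IGROV-1 PromethION replicates did not either, at 1.15% to 14.0% of 48 counts for replicate 1 and 33.4% to 54.7% of 80 counts for replicate 2. The difference between these replicates of 1 line was thus larger than that between any of the other 6 lines.

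**Figure D3:**
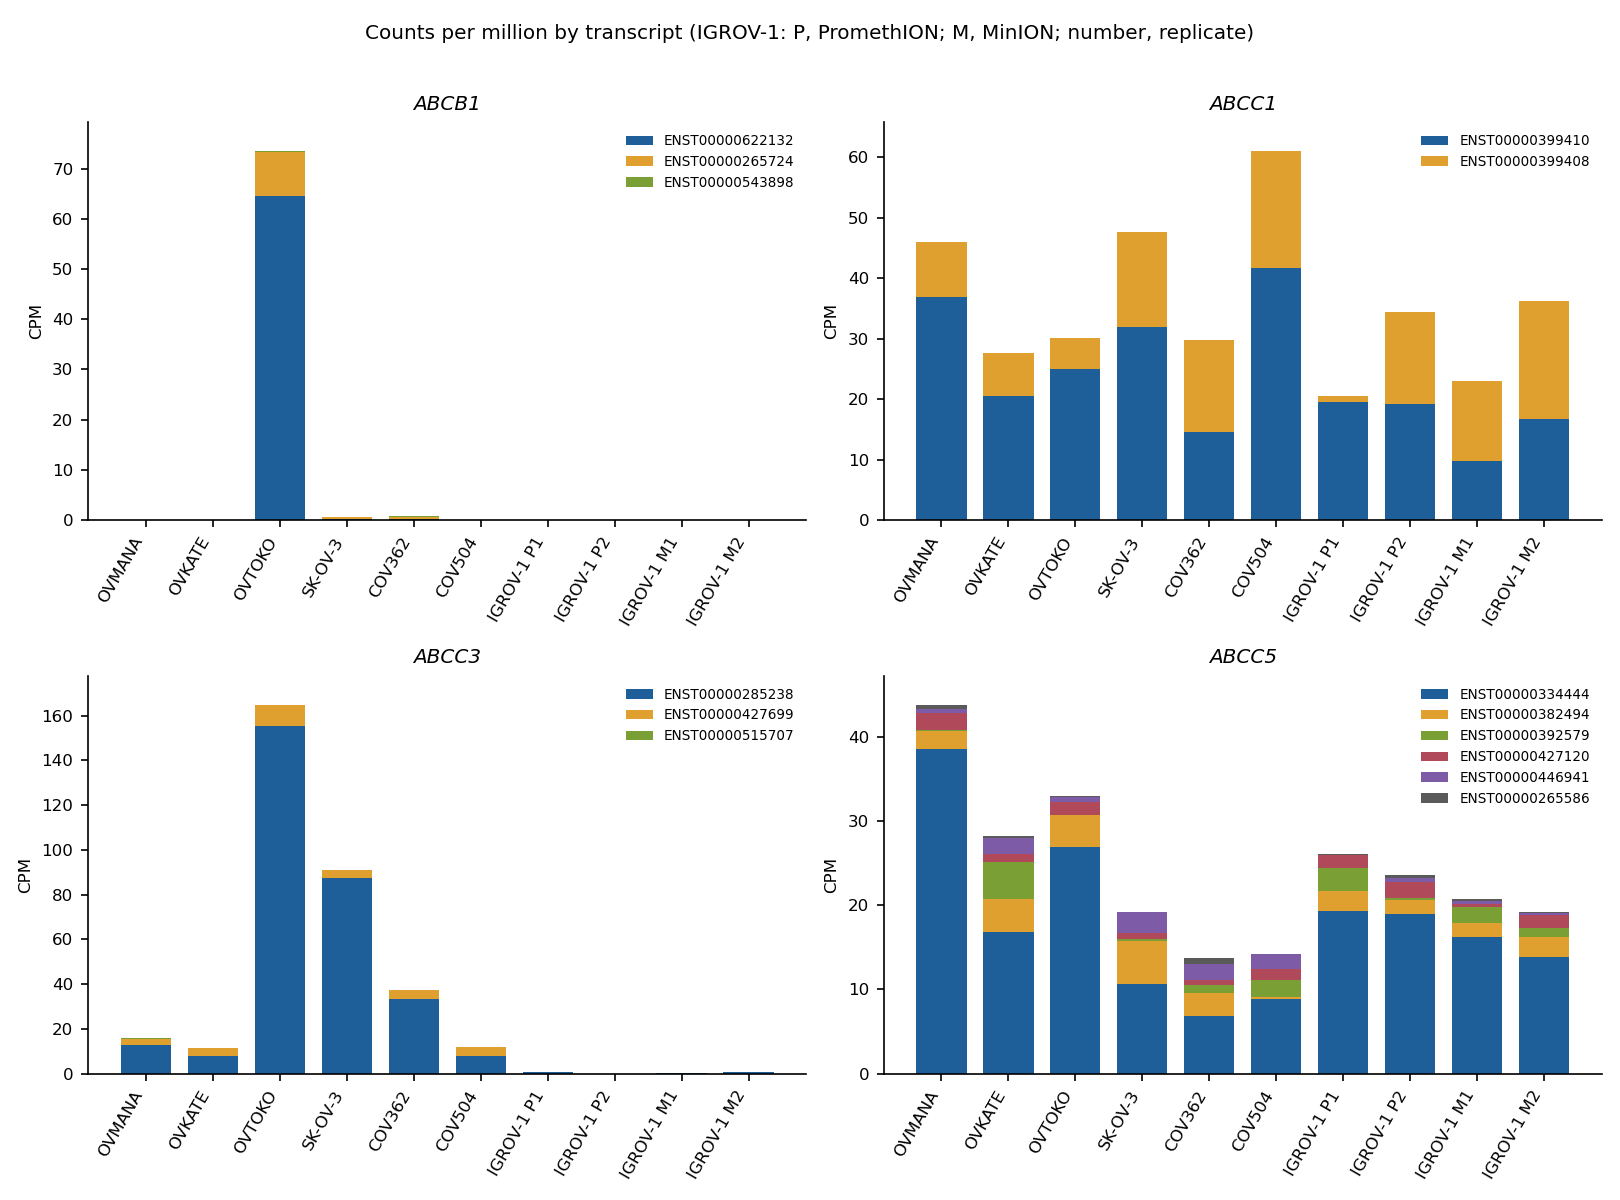
Stacked bars of CPM by annotated transcript for ABCB1, ABCC1, ABCC3 and ABCC5 (vertical axis) in the 10 libraries (horizontal axis). OVTOKO carries nearly all ABCB1, assigned mainly to ENST00000622132, and the ABCC1 transcript with the 30-base exon takes 5.15% in IGROV-1 PromethION replicate 1 and 44.3% in replicate 2.

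ABCC2 (MRP2, ENSG00000023839; chromosome 10, 99782640 to 99852594, plus strand), the apical exporter of bilirubin and drug conjugates, was found in 2 lines. OVTOKO held 5 counts (2.89 CPM), and the IGROV-1 libraries held 3, 6, 6 and 7 counts (1.28 and 2.58 CPM on the PromethION, 1.64 and 2.16 on the MinION). The other 5 lines held 0 counts. Nearly all counts were assigned to ENST00000370449. The intervals of all neighbouring lines overlapped, and the gene did not pass the filter, so no test was made.

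ABCC3 (MRP3, ENSG00000108846; chromosome 17, 50634777 to 50692252, plus strand), an exporter of bile salts and glucuronides, was the transporter that set IGROV-1 apart from all other lines. It was measured at 165 CPM in OVTOKO, 91.2 in SK-OV-3, 37.2 in COV362, 16.0 in OVMANA, 12.0 in COV504 and 11.4 in OVKATE. The IGROV-1 libraries were at 0.854 and 0 CPM on the PromethION and at 0.273 and 0.618 CPM on the MinION, which is 2, 0, 1 and 2 counts. No IGROV-1 library overlapped with a library of another line. OVMANA, COV504 and OVKATE could not be ordered, since their intervals overlapped, while OVTOKO, SK-OV-3 and COV362 each stood above the next line. The ratio to the IGROV-1 PromethION libraries was 385 in OVTOKO (exact 95% interval 106 to 3192), 213 in SK-OV-3 (58.1 to 1771) and 86.9 in COV362 (23.4 to 728). It was 37.4 in OVMANA (9.50 to 323), 28.0 in COV504 (7.05 to 243) and 26.6 in OVKATE (6.56 to 232), and the width of these intervals comes from the 2 counts of the reference. The edgeR Benjamini-Hochberg adjusted p lay between 3.99e-06 in OVTOKO and 0.00150 in OVKATE. ABCC3 did not pass the filter among the IGROV-1 libraries alone and entered these tests through the lines where it is high. At 2, 0, 1 and 2 counts the IGROV-1 libraries give little measure of spread, so these p-values carry little weight beside the counts. ABCC3 was called in all 6 lines under every alternative that was run, DESeq2 included, but the size depended on the reference library. The fitted log2 change of 4.28 in OVKATE to 8.51 in OVTOKO was 3.36 to 7.59 without PromethION replicate 2. Without PromethION replicate 1 the reference held 0 counts, and neither a fitted change nor a call has a meaning there.

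A short ABCC3 transcript was seen beside the full one. ENST00000427699 runs past the end of exon 12 (chromosome 17, 50667554 to 50667757, plus strand) into the intron and ends there. Its annotated reading frame has 572 codons against 1527 of the full ENST00000285238. The coding bases on either side of this point are shown because they are where both forms part, with the 60 bases that follow the shared exon in capitals.
ENST00000427699: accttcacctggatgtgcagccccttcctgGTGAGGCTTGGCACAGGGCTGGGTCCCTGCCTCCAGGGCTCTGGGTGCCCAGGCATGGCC
ENST00000285238: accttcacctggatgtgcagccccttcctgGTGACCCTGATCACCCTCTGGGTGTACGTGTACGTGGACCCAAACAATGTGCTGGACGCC
The short form took 5.79% of the ABCC3 counts in OVTOKO, 4.08% in SK-OV-3 and 10.6% in COV362. It took 18.1% in OVMANA, 33.0% in OVKATE and 35.6% in COV504. The 3 lines with the most ABCC3 had the 3 lowest shares, while the level of the short form itself lay between 2.89 and 9.54 CPM in all 6 lines and that of the full form between 7.62 and 155 CPM. The 95% Wilson interval of OVTOKO (3.48% to 8.92% of 285 counts) did not overlap with that of COV504 (21.5% to 55.8% of 27 counts).

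ABCC4 (MRP4, ENSG00000125257; chromosome 13, 95019829 to 95301475, minus strand), which exports cyclic nucleotides, prostaglandins and nucleotide analogues, spanned the widest range among the genes detected in every library. It was measured at 82.7 CPM in OVTOKO, 56.6 in OVMANA, 31.4 in SK-OV-3, 12.9 in OVKATE, 11.0 in COV362 and 3.56 in COV504 (8 counts). In IGROV-1 it was at 26.5 and 43.8 CPM on the PromethION (35.1 ± 12.3, SD, n = 2) and at 29.5 and 49.7 CPM on the MinION. OVTOKO and OVMANA lay above the IGROV-1 libraries, SK-OV-3 within them, and OVKATE, COV362 and COV504 below. The log2 change was 1.31 in OVTOKO (SE 0.34; edgeR Benjamini-Hochberg adjusted p = 0.0175). It was -1.75 in OVKATE (SE 0.46; edgeR adjusted p = 0.0128), -1.63 in COV362 (SE 0.45; adjusted p = 0.0190) and -3.36 in COV504 (SE 0.59; adjusted p = 0.00224). OVMANA, with a log2 change of 0.75 (SE 0.35; edgeR adjusted p = 0.134), did not pass. Its log2 change depended on the reference library, at 1.16 without PromethION replicate 2 and 0.43 without PromethION replicate 1. The COV504 call held under all alternatives run, while those of OVKATE, OVTOKO and COV362 were lost without MinION replicate 1 and under DESeq2, and the last 2 also without MinION replicate 2. The full-length ENST00000376887 took 93.7% of the ABCC4 counts in OVTOKO, 96.7% in SK-OV-3 and 97.2% in OVMANA, and at least 99.9% in the other 7 libraries.

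ABCC5 (MRP5, ENSG00000114770; chromosome 3, 183919934 to 184018015, minus strand), an exporter of cyclic nucleotides and nucleotide analogues, was present in all lines at levels within 3.20-fold. It was measured at 43.8 CPM in OVMANA, 33.0 in OVTOKO, 28.2 in OVKATE, 19.2 in SK-OV-3, 14.2 in COV504 and 13.7 in COV362. In IGROV-1 it was at 26.1 and 23.6 CPM on the PromethION (24.8 ± 1.72, SD, n = 2) and at 20.7 and 19.2 CPM on the MinION. OVMANA, OVTOKO and OVKATE lay above the IGROV-1 libraries, and COV362 and COV504 below them. The uncalled OVKATE difference changed sign with the scaling: the fit, which scales by TMM (a trimmed mean of expression ratios), gave a log2 change of -0.12 (SE 0.24; edgeR adjusted p = 0.719). OVMANA was called higher, with a log2 change of 0.88 (SE 0.23; edgeR Benjamini-Hochberg adjusted p = 0.0175). COV362 was called lower, with -0.81 (SE 0.27; edgeR adjusted p = 0.0383), and COV504 lower, with -0.88 (SE 0.27; edgeR adjusted p = 0.0301). These calls are close to the threshold. All 3 were lost under DESeq2 and without MinION replicate 1, and those of COV362 and COV504 also under 4 or more other alternatives.

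The ABCC5 reads held a group of short transcripts with a coding length under 300 codons, 4 in number, which were put together after their values were seen. ENST00000382494 leaves the full ENST00000334444 after exon 5 (chromosome 3, 183987770 to 183987917, minus strand) for an exon of its own at 183985304 to 183985378. The coding bases at this junction are shown because it separates the short from the full form, with the 30 bases after the shared exon in capitals.
ENST00000382494: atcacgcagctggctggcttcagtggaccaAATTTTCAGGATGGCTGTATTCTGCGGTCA
ENST00000334444: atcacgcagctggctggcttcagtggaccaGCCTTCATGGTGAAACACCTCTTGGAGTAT
Together the short transcripts took 11.0% of the ABCC5 counts in OVMANA and 18.1% in OVTOKO. They took 39.7% in OVKATE, 44.7% in SK-OV-3, 45.7% in COV362 and 37.5% in COV504. Their part in IGROV-1 was 25.4% and 18.2% on the PromethION and 20.3% and 27.4% on the MinION. Within this group, ENST00000382494 alone took from 1.31% of the ABCC5 counts in COV504 to 26.4% in SK-OV-3 over the 6 other lines. The shares of the group are therefore not those of the junction shown. The level of the long transcripts was 39.0 CPM in OVMANA, 27.0 in OVTOKO, 17.0 in OVKATE, 10.6 in SK-OV-3, 8.90 in COV504 and 7.44 in COV362. The short ones lay between 4.21 and 11.2 CPM in the 10 libraries. The Wilson intervals of OVMANA (5.88% to 19.6%) and COV362 (30.5% to 61.8%) did not overlap.

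**Figure D4:**
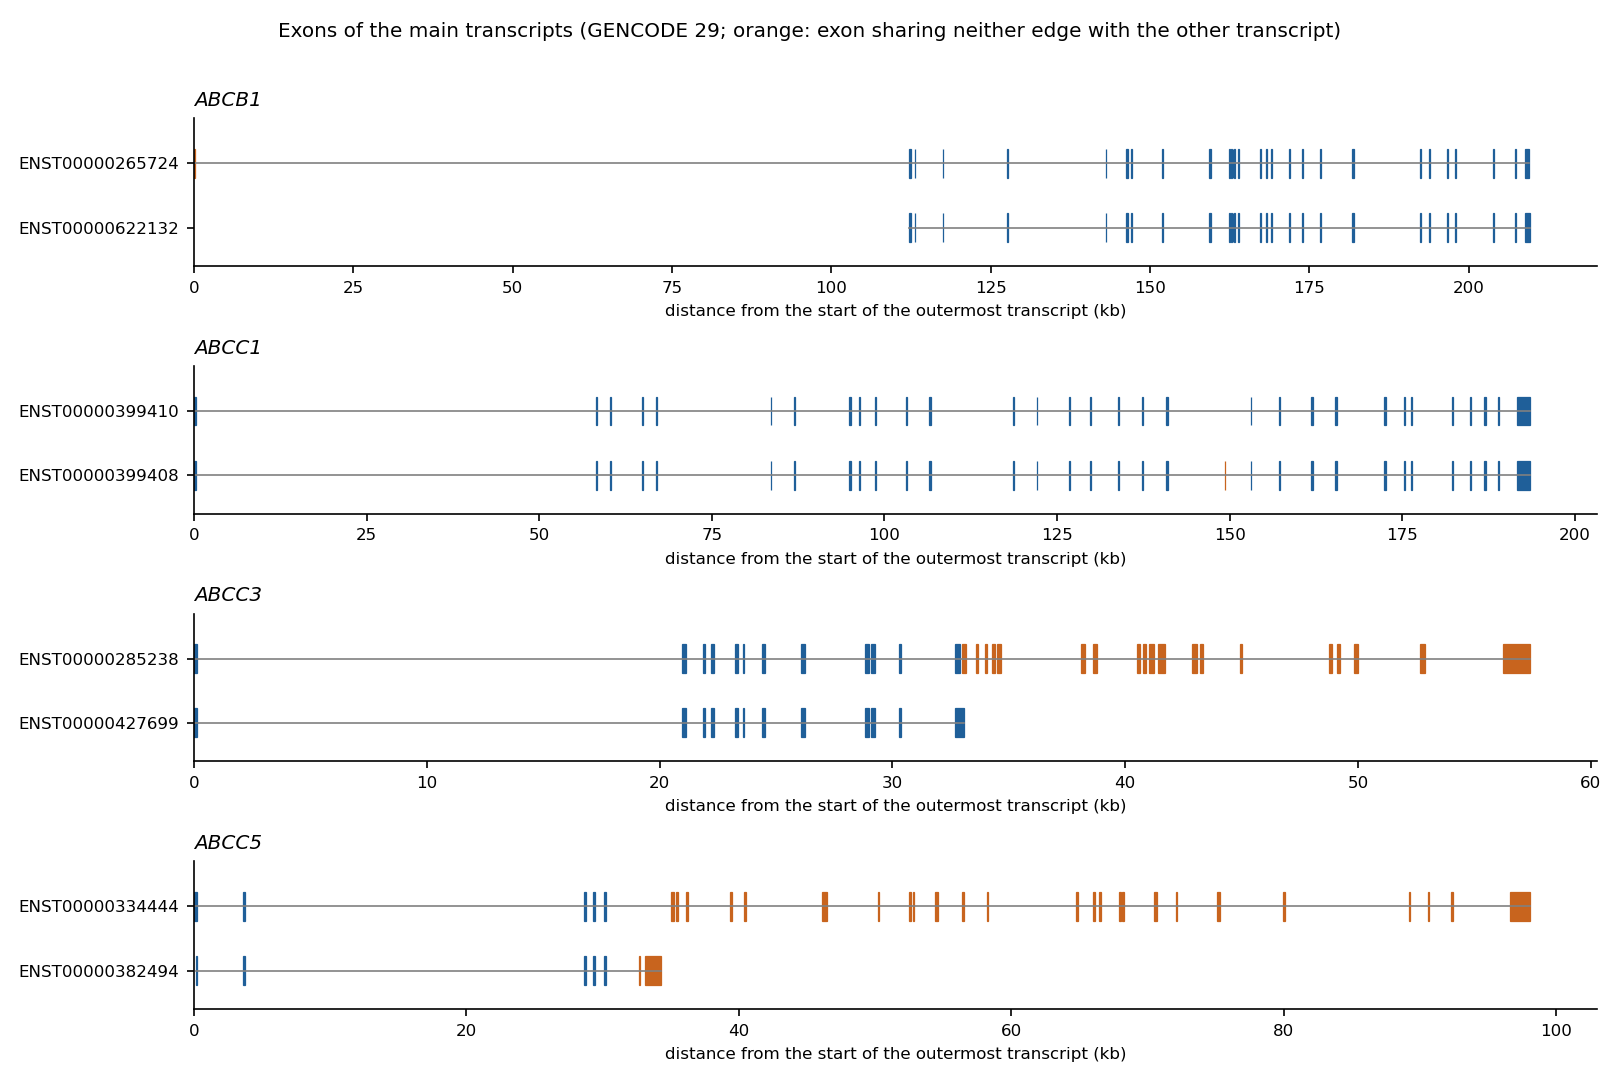
Exons of paired transcripts of ABCB1, ABCC1, ABCC3 and ABCC5 in GENCODE 29 (horizontal axis, distance in kb from the start of the outermost transcript; boxes, exons; orange, exons that share neither edge with the other transcript). ENST00000622132 lacks the distant first exon of ABCB1, ENST00000399408 has 1 exon more than ENST00000399410, and the short ABCC3 and ABCC5 transcripts end inside the gene.

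Transcript usage was tested with edgeR for the 4 genes with enough counts on more than 1 transcript (ABCB1, ABCC1, ABCC3 and ABCC5). In all 6 lines 0 of 4 were called, and 0 had an unadjusted p under 0.05. Beside this, usage differed for 2.75% of all genes tested in OVMANA, 4.97% in OVKATE, 1.35% in OVTOKO, 2.07% in SK-OV-3, 2.98% in COV362 and 2.56% in COV504. The lowest p of the 24 tests was that of ABCC5 in OVMANA (unadjusted p = 0.0609; edgeR Benjamini-Hochberg adjusted p = 0.409). In ABCC3 the reference holds 2 counts, so this test had almost nothing to compare with, and for ABCB1 the reference holds none. The shares above are therefore descriptions of single libraries.

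ATP7A (ENSG00000165240; chromosome X, 77910656 to 78050395, plus strand), the copper pump mutated in Menkes disease, was low in all lines. The 6 single libraries held 2 to 11 counts, from 1.16 CPM in OVTOKO to 5.57 CPM in SK-OV-3. The IGROV-1 libraries held 3 and 9 counts on the PromethION (1.28 and 3.87 CPM) and 13 and 20 on the MinION (3.55 and 6.18 CPM). All lines lay within the range of the IGROV-1 libraries except OVTOKO, whose 2 counts put it just below, and ATP7A was called in 0 of 6 line comparisons. The lowest adjusted p was 0.374 in SK-OV-3 (edgeR, Benjamini-Hochberg), where the log2 change was 0.87 (SE 0.74), with 0.29 without PromethION replicate 1 and 1.85 without PromethION replicate 2. Its leading transcript was ENST00000341514. PGK1, a glycolytic enzyme gene on the same strand, overlaps ATP7A and was at 477 to 1350 CPM, and its part in the ATP7A value was not tested.

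ATP7B (ENSG00000123191; chromosome 13, 51930436 to 52012125, minus strand), the copper pump mutated in Wilson disease, was at or near the floor. SK-OV-3 held 5 counts (2.53 CPM), OVKATE 3 (1.48 CPM), OVMANA 2 (1.07 CPM) and COV504 1 (0.445 CPM). OVTOKO, COV362 and both IGROV-1 PromethION libraries held 0, while the MinION libraries of IGROV-1 held 2 and 7 counts (0.546 and 2.16 CPM). Its leading transcript was ENST00000344297. The gene did not pass the filter, and differences between lines were not detectable at this depth.

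SLC31A1 (CTR1, ENSG00000136868), the high-affinity copper importer, was the best covered gene of the copper group and was highest in OVKATE. It has 1 annotated transcript, ENST00000374212. It was measured at 128 CPM in OVKATE, 82.3 in COV504, 52.4 in OVMANA, 45.1 in SK-OV-3, 44.7 in COV362 and 33.5 in OVTOKO. In IGROV-1 it was at 55.1 and 53.3 CPM on the PromethION (54.2 ± 1.30, SD, n = 2) and at 44.7 and 40.2 CPM on the MinION. OVKATE and COV504 lay above all other libraries, and OVTOKO lay below them. Under TMM scaling the OVKATE level was 107.5 CPM, outside its 95% Poisson interval of 113 to 145 CPM, and that of IGROV-1 was 56.1 CPM. OVKATE was called, with a log2 change of 0.94 (SE 0.18; edgeR Benjamini-Hochberg adjusted p = 0.00305), and this call was lost under DESeq2 alone. COV504, with 0.52 (SE 0.19; edgeR adjusted p = 0.0504), missed the threshold, and OVTOKO, with -0.61 (SE 0.22; edgeR adjusted p = 0.0644), did too. COV504 passed with RLE size factors, with a filter at 10 CPM and with all 4 IGROV-1 libraries as the reference. SLC31A1 (chromosome 9, 113221562 to 113264492, plus strand) overlaps CDC26 on the other strand, which was at 17.9 to 67.3 CPM with its highest value also in OVKATE, and the part of CDC26 reads in the SLC31A1 value was not tested.

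The 2 instruments were compared within IGROV-1. Of the 5 genes that passed the filter there (ABCC1, ABCC4, ABCC5, ATP7A and SLC31A1) 0 were called by edgeR and 0 by DESeq2, beside 0.817% of 10041 genes with edgeR, and 1 had an unadjusted p under 0.05. That gene was SLC31A1, which was lower on the MinION by a log2 change of -0.39 (SE 0.16; edgeR Benjamini-Hochberg adjusted p = 0.270). Transcript usage could be tested for ABCC1 only and was not called (edgeR adjusted p = 0.787), beside 5.98% of all genes tested. The replicate mattered as much as the instrument for several genes. ABCC1 was 1.68 times as high in replicate 2 as in replicate 1 on the PromethION and 1.58 times on the MinION, and ABCC4 was 1.65 and 1.69 times as high. For ABCC5 the same ratios were 0.907 and 0.924, and for SLC31A1 0.967 and 0.898.

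Other genes of drug transport, copper handling and conjugation were taken from lists drawn up with earlier results of these data known, and are described by counts. Among 25 genes of copper handling (chaperones, metallothioneins, cuproenzymes) 24 were tested. In OVMANA 13 were higher and 4 lower, beside 18.9% higher and 16.5% lower of all genes, and in OVTOKO 11 were higher and 0 lower, beside 18.2% and 15.9%. In the other 4 lines 9 or 10 were higher and 2 to 4 lower, beside 22.0% to 26.8% and 18.8% to 22.4% of all genes. In each line 4 or 5 of the tested genes had a group at 0. MT1E and MT1M, at 0 in IGROV-1, passed the filter only through other lines and could only be called higher. The median log2 change of the list lay between 0.31 in COV504 and 0.91 in OVMANA, with medians of all tested genes of 0 and -0.01, and between 0.42 and 0.96 when genes with a group at 0 were set to their bound. The metallothionein MT1E, which binds copper and zinc, was at 0 in all 4 IGROV-1 libraries, at 1.01 CPM in SK-OV-3 and at 257 to 842 CPM in the other 5 lines, where it was at least 399.5-fold higher than the floor of the reference. MT1M was at 360 CPM in OVMANA, 23.1 in COV362 and 12.0 in COV504, and at or under 0.495 CPM in the other libraries. Metallothionein genes are near-identical, and reads could be divided between them in error.

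Of 11 other efflux ABC genes 6 were tested, and 0 to 4 of them were called in a line, beside 34.1% to 49.2% of all genes. ABCA3, a lipid transporter, was at 42.2 CPM in OVTOKO, the line of ABCB1 and of the highest ABCC3 and ABCC4, and at 1.33 to 9.40 CPM in the other libraries. ABCB6, a porphyrin transporter, was at 66.8 CPM in OVKATE and at 3.53 to 20.7 CPM elsewhere. The median log2 change of the list ran from -0.82 in COV504 to 0.80 in OVKATE. Of 12 tested drug uptake and exchange carriers, SK-OV-3 had 8 higher and 1 lower, beside 22.0% and 19.8% of all genes, with a list median of 1.07 against 0 for all genes. The other 5 lines had 1 to 4 higher and 2 to 4 lower, beside 18.2% to 26.8% and 15.9% to 22.4% of all genes. Their list medians ran from -0.80 in OVTOKO to 0.18 in COV504. The organic cation transporter SLC22A3, which can carry platinum drugs into cells, was at 42.5 CPM in SK-OV-3, at 12.8 to 19.3 CPM in IGROV-1 and at no more than 1.60 CPM in the other 5 lines. The cation exchanger SLC47A1 was at 40.5 CPM in SK-OV-3, 8.23 in COV362 and 6.01 to 9.82 in IGROV-1.

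Glutathione is the partner with which ABCC pumps carry many substrates. Of 17 tested genes of its synthesis and conjugation, 2 to 5 were higher and 2 to 8 lower in a line, beside 18.2% to 26.8% and 15.9% to 22.4% of all genes, with list medians from -0.49 in OVKATE to 0.26 in COV362. The microsomal transferase MGST1 was at 360 CPM in OVKATE, 214 in COV362, 99.8 in SK-OV-3, 38.5 in OVMANA and 15.6 in OVTOKO, and at 0 in COV504 and all 4 IGROV-1 libraries. MGST1 too passed the filter only through other lines and could only be called higher. The transferase GSTM3 was at 673 CPM in OVMANA, 173 to 282 CPM in IGROV-1 and 1.33 CPM in COV504. Of 10 tested genes that anchor or regulate the transporters, 5 to 8 were called in a line, beside 34.1% to 49.2% of all genes. PDZK1, a scaffold that binds apical transporters, was at 18.3 CPM in OVKATE and at most 3.55 CPM elsewhere.

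Genes with the most similar pattern over the 7 lines were sought for the members that reached 10 CPM and spanned at least 4-fold. The measure was Pearson's r of log2(CPM + 1) over the 7 lines among 11211 genes, and since each is the highest of so many, r is a description. For ABCB1 they were ITGAD (r = 0.99) and ACMSD (r = 0.99), and these r rest on the OVTOKO library alone. ITGAD and ACMSD were at 73.4 and 31.8 CPM in OVTOKO and at or under 0.506 CPM in the other lines. For ABCC3 the closest genes were AKR1C3 (r = 0.96) and FGF2 (r = 0.96), and AKR1C3 was at 437 CPM in SK-OV-3, 166 in OVTOKO and 1.28 in IGROV-1. For ABCC4 they were FGFR4 (r = 0.99), at 39.9 CPM in OVTOKO and 0.445 in COV504, and PLEKHA1 (r = 0.97), at 44.5 and 14.2 CPM in the same lines.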

How the data were processed

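The authors deposited, for each of 10 libraries, estimated counts of transcripts, fractions included, and a TPM value of each. The deposited TPM equals the count scaled to the library total (CPM; largest difference 5.64e-11) and is not divided by length. The submitters' processing notes name minimap2 2.24-r1122 and GRCh38. For the quantifier, its settings and the use of strand, the sources used here give no details. Per the labels' protocols, all libraries were made with the same ligation kit, with end repair lengthened to 30 min.

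Transcripts were summed per gene and estimated counts were rounded to whole numbers. edgeR 4.0.16 (R 4.3.3) fitted 8 groups (6 lines, and IGROV-1 by instrument) with TMM, its default filter and two-sided quasi-likelihood tests, Benjamini-Hochberg adjusted, with 2 residual degrees of freedom, all from IGROV-1. Transcript usage was tested with diffSpliceDGE. The tests were also run on simulated counts, in which all genes shared the same dispersion and few genes were changed. In the data a large share of all genes was called, so that run does not vouch for the calls. Alternatives were RLE size factors, 2 other filters, joined identifiers left out, each IGROV-1 library left out, 1 IGROV-1 group and DESeq2 1.42.0. Structures come from GENCODE 29 and promoters from RefSeq.

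The members, gene lists and tests were chosen with earlier results of these data known. The text names all members, the 2 genes of each list with the largest range of log2(CPM + 1) over the lines among those passing the joint test, each member's leading transcript and any at 25% of 20 or more counts (a second transcript only where its share is described) and the 2 genes closest in pattern to a member. Of the genes so chosen, 1 is not reported here. Shares have 95% Wilson intervals.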

Additional observations from a re-analysis of the deposited data

How the results depend on the processing

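ABCC3 was called in all 6 lines in every alternative run. Without PromethION replicate 1 its reference held 0 counts, so that alternative cannot test its difference, and the others rest on few reference counts. ABCB1, at 0 in every IGROV-1 library, is left out here, since leaving out such a library cannot test its difference either. With 1 IGROV-1 library left out at a time, the number of transporters called moved in each line and in the joint test. The number of all genes called moved as well. Such a fit leaves 1 library in a group, and these shifts say nothing particular about transporters. DESeq2 called 1 transporter in OVMANA, 1 in OVKATE, 1 in COV362, 2 in COV504 and 3 in the joint test. Without a filter edgeR called 2 in COV504, beside 4856 of all genes against 5672 with the filter. The cause of these losses was not tested, but DESeq2 also called fewer of all genes, 1314 to 2116 in a line against 4443 to 6405 with edgeR, and 3788 against 10590 jointly. Without MinION replicate 1, all genes called in OVTOKO fell to 2890.

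Some uncalled differences changed sign. With 1 IGROV-1 library left out at a time, the log2 change lay between -0.011 and 0.052 for SLC31A1 in OVMANA, -0.62 and 0.13 for ABCC1 in OVKATE, -0.12 and 0.63 for ABCC1 in OVTOKO, -0.71 and 0.020 for ABCC4 in SK-OV-3, -0.17 and 0.58 for ABCC1 in COV362 and -0.39 and 1.17 for ATP7A in COV504. Between the instruments it lay between -0.27 and 0.47 for ABCC1 and -0.24 and 0.52 for ABCC4. With 1 IGROV-1 group, ABCC5 in OVKATE was 0.056 and ATP7A in COV504 -0.35. The cause was not tested.

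The replicate numbers of IGROV-1 are shared by both instruments. Deviations of same-numbered libraries correlated at r = 0.37 over 10041 genes, but with 2 pairs the numbers do not establish a pairing. With the replicate block 1 transporter (SLC31A1) was called between instruments, and 1978 of all genes against 82, while leaving out a library gave 4 to 209 of all genes. No transporter changed its usage call in any alternative, while the all-gene usage counts of the 6 lines fell from 64 to 235 to between 13 and 71 with a library left out. Scaling by the library total moved the median of all genes against TMM by 0.28 in OVKATE and 0.17 in SK-OV-3, and scaling without mitochondrial genes by -0.22 in OVMANA, -0.21 in OVTOKO, -0.13 in COV362 and 0.13 in OVKATE (log2). Depth limits ABCB1 outside OVTOKO, ABCC2, ABCG2, ATP7A, ATP7B and ABCC3 in IGROV-1.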
